A study of Homo sapiens with 2 samples.

Results

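RAB proteins are the largest family of RAS-related small GTPases, and their transcripts were compared between H6c7 cells carrying a K-ras oncogene and parental H6c7 cells. Members were the genes whose symbol begins with RAB and a digit and which are named alone by at least 1 probe set of the Affymetrix U133A array. The rule took in 52 of 11963 genes on the array. Of these, 43 are RAB GTPases and 9 only carry the name, being RAB effectors, regulators or, for RAB9BP1, a pseudogene, so the group is called RAB-named genes where all are meant. Each gene was read from its probe set with the highest mean log2 signal.

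The study holds 2 groups with 1 array each, K-ras H6c7 and parental H6c7. H6c7 is a line of human pancreatic duct epithelial cells, immortalised with papillomavirus E6 and E7 genes that both groups share, and the K-ras group differs by an introduced K-ras oncogene. The labels name no vector control and give neither a clone nor a pool for the K-ras cells. No spread between replicates can be had from single arrays, and no test was possible, so every difference below describes these 2 arrays only.

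A RAB switches between a GDP-bound form held in the cytosol and a GTP-bound form on a membrane, where it recruits tethers, motors and sorting proteins. Each RAB marks its own compartments, so the set of RABs in a cell outlines its secretory, endocytic and recycling routes. In duct epithelium these routes carry secretory vesicles and membrane proteins to the apical and basolateral surfaces and return integrins and growth factor receptors after uptake. Exchange factors load GTP, GTPase-activating proteins end the active state, and a prenyl group attached by geranylgeranyl transferase anchors the protein.

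Signals are linear array intensities in arbitrary units, and levels of different genes cannot be ranked against each other because probe sets differ in brightness. The median signal over probe sets was 46.9 on the K-ras array and 43.9 on the parental array. The higher of these, 46.9, served as the floor. A gene under it on both arrays was called not measured, and a gene under it on 1 array has a ratio against the floor, which is a bound. All 6 epithelial markers examined were above the floor on both arrays (KRT7, KRT8, KRT18, KRT19, EPCAM and CDH1). Of these KRT19 was 2.74-fold lower, with 1644 on the K-ras array and 4511 on the parental array, and EPCAM 2.08-fold lower. KRT8 went the other way, 1.84-fold higher with 2044 on the K-ras array and 1111 on the parental array, as did KRT18, 1.30-fold higher. KRT7 was 1.25-fold lower and CDH1 1.02-fold lower. Of 5 fibroblast markers, COL1A1 (94.6 on the K-ras array and 131 on the parental array) and DCN (84.3 on the K-ras array and 59.1 on the parental array) were above the floor on both arrays, both on _x_at probe sets, and COL1A2 on the K-ras array alone. Of 2 acinar markers on the array, CELA3A passed the floor on the K-ras array alone, with 56.3 against 43.1 on the parental array. The other, CPA1, was not measured, with 1.90 on the K-ras array and 3.60 on the parental array, and none of 3 islet markers was measured. Of 3 leukocyte markers on the array only CD3E was measured, with 78.2 on the K-ras array and 11.2 on the parental array. The part of other cell types in the values below was not tested. The transcript of the introduced oncogene was not analysed here.

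Most RAB-named genes had ratios within 2-fold, 37 of 43 measured with bounds included, beside 5817 of 7693 over all measured genes. In bulk RNA, fewer cells with a transcript and less of it per cell cannot be told apart. Of the 52 RAB-named genes, 43 were measured, 35 of them above the floor on both arrays and 8 as bounds. At least 2-fold higher in the K-ras line were 4 of 43 (9.30%), namely RAB11B, RAB1B, RAB11FIP1 and RAB32. At least 2-fold lower were 2 of 43 (4.65%), RAB2A and RAB23. Over all 7693 measured genes, 9.97% passed 2-fold on the higher side and 14.4% on the lower side, so the share of higher RAB-named genes was close to the background and the share of lower ones was below it, by a difference that was not tested. No RAB-named gene passed 3-fold in the probe set used. The median log2 ratio of K-ras over parental was 0.08 over the 35 genes, beside 0.10 over all 5996 genes that passed the floor on each array. Log2 ratios of the RAB-named genes had an SD of 0.67 between genes, beside 0.92 between all genes. Of the 35, 20 differed by no more than 1.5-fold, a share that was not counted over all genes. Quartiles of the log2 ratio were -0.31 and 0.56 over the 35, beside -0.53 and 0.60 over the 5996 genes. Log2 ratios above 0 were held by 3271 of the 5996 genes, and ratios below 0 by 2725.

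The 9 genes below the floor on both arrays included isoforms of regulated secretion. RAB3A, which serves synaptic vesicle release, had signals of 6.40 on the K-ras array and 13.4 on the parental array. RAB27B, a RAB of secretory granules and exosomes, had 11.0 and 19.2 on the K-ras and parental arrays. RAB33A, RAB40A, RAB40AL, RAB40C, RAB11FIP4 and the pseudogene RAB9BP1 also lay below the floor on both, as did RAB3GAP2 in its only probe set that names no other gene. A low signal does not show that a transcript is absent. Another 10 probe sets name a RAB beside a second gene and were left out, so genes such as RAB6A and RAB4B have no value here.

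The RABs between endoplasmic reticulum and Golgi split most widely. RAB1B, which drives transport out of the endoplasmic reticulum, had a signal of 655 on the K-ras array and 254 on the parental array, 2.58-fold higher. Its close relative RAB1A, which acts at the same step, had 1022 on the K-ras array and 2001 on the parental array, 1.96-fold lower. The RAB1 pair thus lay on opposite sides of 0, with a difference between their log2 ratios of 2.34. RAB1A is the member nearest to the 2-fold threshold on the lower side. Its probe sets did not give 1 value, since log2 ratios of -1.11 and -0.04 came from the other 2 probe sets. Only the RAB1A probe set at -0.04 has a name not ending in _s_at. It gave the RAB1A ratio when _x_at and _s_at probe sets were left out. RAB1B was read by 1 probe set, of the _s_at kind, so its ratio has no second reading.

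RAB2A, which works on transport between Golgi and endoplasmic reticulum, was 2.15-fold lower in the probe set used, with 330 on the K-ras array and 710 on the parental array. A second probe set gave 117 on the K-ras array and 246 on the parental array, a log2 ratio of -1.07. A further 3 probe sets that passed the floor on each array gave log2 ratios of 0.01, 0.35 and 0.42. The RAB2A probe sets therefore fall into a pair near 2-fold lower and a trio at or slightly above 0, and the median over the 5 probe sets was 0.01. The lower pair had names ending in plain _at. Of the trio, those at 0.01 and 0.35 were _x_at probe sets, which can pick up related transcripts. That at 0.42 was an _s_at probe set. The direction of RAB2A rests on the choice of probe set.

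RAB6B, a Golgi RAB best known from neurons, had 104 on the K-ras array and 58.8 on the parental array, a log2 ratio of 0.83. RAB33B, which acts at the Golgi and in autophagosome formation, had a log2 ratio of 0.08 close to the floor. RAB30, another Golgi RAB, passed the floor only on the K-ras array, with 52.3 against 43.2 on the parental array. Over the 5 ER and Golgi genes above the floor on both arrays the log2 ratios ran from -1.11 to 1.37, with a median of 0.08.

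**Figure D1:**
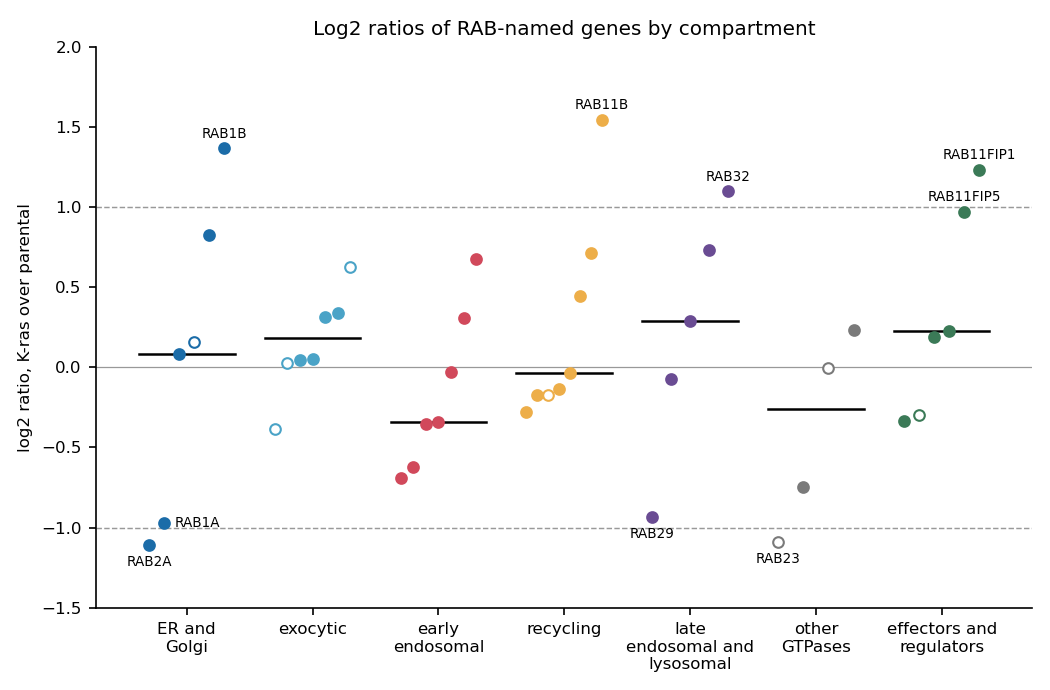
Log2 ratio of K-ras over parental for each measured RAB-named gene, by compartment; filled points are above the floor on both arrays, open points are bounds, bars are medians of the filled points and dashed lines mark 2-fold. RAB1B, RAB11B, RAB32 and RAB11FIP1 lie above the upper line and RAB2A and RAB23 below the lower one.

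Exocytic RABs differed little. Of 7 measured, none passed 2-fold, and the 4 above the floor on both arrays had log2 ratios between 0.05 and 0.34, all above 0. RAB13, which delivers proteins to tight junctions, had 789 on the K-ras array and 625 on the parental array. RAB8A, a RAB of polarised delivery and of cilia, had 984 on the K-ras array and 792 on the parental array. Both were higher by under 1.5-fold. RAB27A, which docks secretory vesicles and exosome-bearing endosomes, had a log2 ratio of 0.05. The name of that probe set ends in _x_at, so it can pick up related transcripts. A second RAB27A probe set gave 0.19, and another gave a bound at -0.18, with 28.3 on the K-ras array and 53.2 on the parental array. RAB3B, which acts in regulated exocytosis, had 62.9 on the K-ras array and 60.9 on the parental array. Bounds were those of RAB26, a secretory granule RAB with 72.5 on the K-ras array and 37.6 on the parental array, of RAB3D, known from zymogen granules, and of RAB8B. RAB8B had 36.1 on the K-ras array and 61.2 on the parental array, the lone exocytic gene with a ratio below 0. Secretory RABs, meaning the ER and Golgi class with the exocytic class, had a median log2 ratio of 0.08 over 9 genes, 7 of which were above 0. Over all genes above the floor on both arrays, 3271 of 5996 were above 0.

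Early endosomal RABs leaned to the lower side, without any past 2-fold. Of 7 measured, 5 had log2 ratios below 0, and the median was -0.34. Over all genes above the floor on both arrays, 2725 of 5996 were below 0. The difference was not tested. RAB22A, which acts between early endosomes and the Golgi, had 272 on the K-ras array and 438 on the parental array. RAB21, which guides integrins through endosomes, had 257 on the K-ras array and 396 on the parental array. Their log2 ratios were -0.69 and -0.62, and a second RAB22A probe set gave -1.47, with 69.9 on the K-ras array and 193 on the parental array. RAB31, which serves traffic between Golgi and endosomes, had a log2 ratio of -0.34 with other probe sets at -0.13 and 0.12. RAB20 had a log2 ratio of -0.03. The early endosomal median moved to -0.03 when each gene was given the median of its probe sets, so its size depends on which probe sets are read. The same genes stayed below 0 in that setting. RAB22A was then at -1.08, past 2-fold, RAB21 at -0.62 and RAB31 at -0.13, while RAB20 at -0.03 and RAB5A at -0.02 were near 0.

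The 3 RAB5 genes, which encode the central organisers of early endosome fusion, did not run together. RAB5C had 387 on the K-ras array and 242 on the parental array, a log2 ratio of 0.68 with 0.87 in a second probe set. RAB5B had 262 on the K-ras array and 211 on the parental array. RAB5A had 318 on the K-ras array and 408 on the parental array, a log2 ratio of -0.36, but 0.32 in a second probe set. RAB5C had the highest log2 ratio of the 3, and that second probe set put RAB5A beside RAB5B, at 0.31.

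Among the 8 recycling RABs measured, RAB11B stood highest and the others were within 2-fold. RAB11B, which serves the pericentriolar recycling endosome, had 149 on the K-ras array and 51.1 on the parental array, 2.92-fold higher. In its other probe set the signal was 172 on the K-ras array and 35.6 on the parental array, at least 3.67-fold higher. The parental signals of both probe sets lay near or under the floor. RAB11A, the best studied RAB of this compartment, had 1299 on the K-ras array and 1428 on the parental array, a log2 ratio of -0.14, with -0.47 in its other probe set. The difference between the log2 ratios of RAB11B and RAB11A was 1.68. RAB25, an epithelial relative of RAB11 linked to integrin recycling and carcinoma, had 547 on the K-ras array and 403 on the parental array, a log2 ratio of 0.44.

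RAB35, which controls fast recycling and cadherin traffic, had 282 on the K-ras array and 173 on the parental array, a log2 ratio of 0.71 with 0.23 in a second probe set. RAB4A, a RAB of fast recycling, had a log2 ratio of -0.17, with -0.03 in a second probe set and a bound at -0.96 in another. RAB14, which acts between Golgi and endosomes, was at -0.28 with 0.18 in a second probe set. RAB15 and the epithelial RAB17 lay close to the floor, with log2 ratios of -0.03 and, as a bound, -0.17. The 7 recycling genes above the floor on both arrays had a median of -0.03, with 3 above 0 and 4 below.

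Effectors named after RABs included a group that binds RAB11. RAB11FIP1, which links RAB11 to receptor and integrin recycling, had 145 on the K-ras array and 61.5 on the parental array, 2.35-fold higher in its only probe set. This call ended with the floor at the 70th percentile, at a log2 ratio of 0.25, and with the floor as a pseudocount, at 0.82. RAB11FIP5, also a RAB11 effector, had 251 on the K-ras array and 128 on the parental array, 1.96-fold higher and the member nearest to the threshold on the higher side. RAB11FIP3, which acts in cytokinesis, had a log2 ratio of 0.19. RAB11FIP2, an adaptor for myosin V, went the other way as a bound, with 36.0 on the K-ras array and 57.6 on the parental array. Of the remaining RAB-named regulators, RAB3GAP1, a subunit of the RAB3 GTPase-activating complex, had a log2 ratio of -0.34, and RAB3IL1, an exchange factor, 0.23.

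Late endosomal and lysosomal RABs spread to both sides. RAB32, which serves lysosome-related organelles such as melanosomes, had 782 on the K-ras array and 365 on the parental array, 2.14-fold higher in its only probe set. Its relative RAB38, with a similar role, had 1061 on the K-ras array and 640 on the parental array, a log2 ratio of 0.73. RAB29, a Golgi and lysosome RAB that recruits the kinase LRRK2, had 114 on the K-ras array and 219 on the parental array, 1.91-fold lower, and its second probe set was at least 1.80-fold lower. RAB7A, which drives late endosome maturation, had a log2 ratio of 0.29 in the probe set used and -0.34 in another. RAB9A, which returns cargo from late endosomes to the Golgi, was at -0.07. The median over these 5 genes was 0.29, but it was -0.03 with the median over probe sets.

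The remaining RAB GTPases have other or less settled roles. RAB23, which restrains hedgehog signalling in mouse, had 32.9 on the K-ras array and 99.8 on the parental array, at least 2.13-fold lower on an _x_at probe set. Its log2 ratio was -0.89 with maintenance scaling and -0.88 with the floor as a pseudocount, both short of 2-fold. RAB28, a RAB of cilia and photoreceptors, had 72.8 on the K-ras array and 122 on the parental array, a log2 ratio of -0.74. RAB36 had a log2 ratio of 0.23, and RAB40B lay at the floor.

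**Figure D2:**
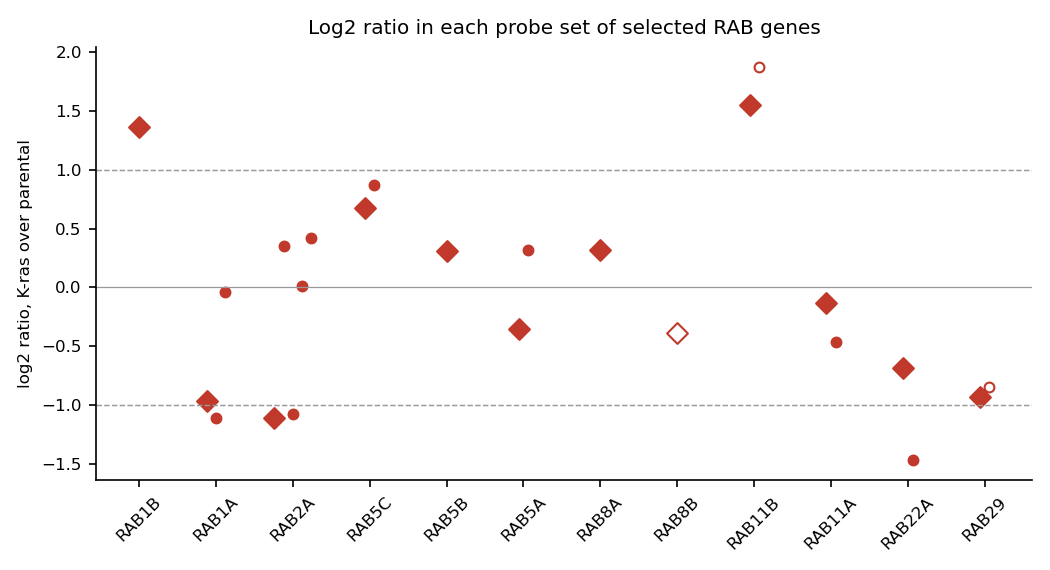
Log2 ratio of K-ras over parental in every probe set above the floor on at least 1 array, for genes of the RAB1, RAB5, RAB8 and RAB11 families and for RAB2A, RAB22A and RAB29; diamonds are the probe sets used, open symbols are bounds and dashed lines mark 2-fold. RAB11B and RAB1B lie above 1, both probe sets of RAB11A lie below 0, and the 5 probe sets of RAB2A run from -1.11 to 0.42.

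Families that share a number could be compared where at least 2 members were measured, which held for 5 families. In RAB1, RAB5 and RAB11 the B or C gene had a higher log2 ratio than the A gene, by 2.34 in RAB1, by 0.67 and 1.03 in RAB5 and by 1.68 in RAB11. The size of the RAB1 difference depends on the RAB1A probe set used, since another gave -0.04. The order of RAB5A and RAB5B depends on the probe set as well, since another RAB5A probe set gave 0.32, beside 0.31 for RAB5B. In RAB8 it was the A gene that was higher, with RAB8B a bound, and RAB3B and RAB3D differed by 0.02 with RAB3D a bound. The repeat measurement at hand is that between probe sets of a gene, which is technical. In 13 RAB-named genes at least 2 probe sets passed the floor on each array, and the pooled SD of their log2 ratios within a gene was 0.48, beside 0.46 over 1671 such genes on the whole array. Without RAB2A it was 0.37 over 12 genes. Probe sets agreed in sign in 8 of the 13 genes. This SD is that of a single ratio, and the differences between genes of a family were not tested. RAB11B was at 0.29 with the floor at the 70th percentile, a floor above both of its parental signals.

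The genes with the highest ratios had short genomic spans, apart from RAB11FIP1. In GRCh38.p14 RAB1B spans 8.85 kb, RAB32 11.1 kb and RAB11B 14.1 kb, against 43.3 kb for RAB1A, 22.5 kb for RAB11A and 107 kb for RAB2A. Over the 30 RAB GTPases above the floor on both arrays, log2 ratio and log2 span had Pearson's r = -0.30 and Spearman's rho = -0.36, a description across genes of 1 pair of arrays, which are not independent replicates. The same values over 5995 genes were r = -0.20 and rho = -0.22. The 13 RAB GTPases under 25 kb had a median log2 ratio of 0.31 with 9 above 0, and the 17 of 25 kb or more a median of -0.03 with 7 above 0. Over all genes the medians were 0.28 under 25 kb, with 1787 of 2790 above 0, and -0.07 from 25 kb, with 1483 of 3205. The relation to span was thus present across the array as well as in the RABs. Among the genes that ran against it were RAB29, with 7.50 kb, RAB6B, with 71.6 kb and a log2 ratio of 0.83, and RAB38, with 372 kb. After removal of the array-wide trend RAB1B, RAB11B, RAB11FIP1 and RAB23 were still past 2-fold, while RAB32 and RAB2A were not, with log2 ratios of 0.76 and -0.91, and RAB29 passed it on the lower side at -1.20.

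**Figure D3:**
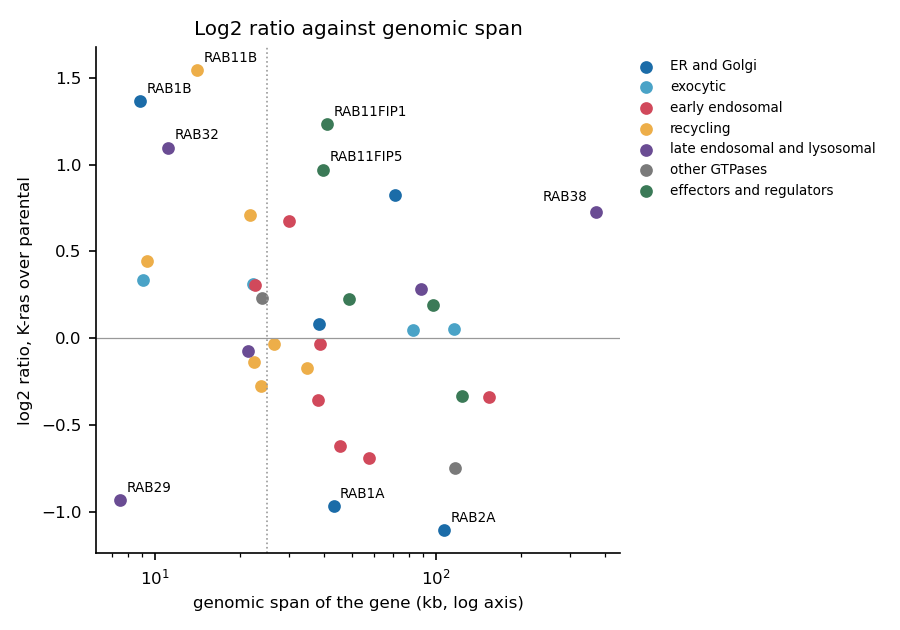
Log2 ratio of K-ras over parental against genomic span in GRCh38.p14 (kb, log axis) for the 35 RAB-named genes above the floor on both arrays, coloured by compartment; the dotted line marks 25 kb. RAB1B, RAB32 and RAB11B lie at the upper left, RAB2A and RAB1A at the lower right, and RAB29 at the lower left goes against the slope.

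The upstream sequences of the 3 higher RAB GTPases, RAB1B, RAB11B and RAB32, are shown with that of RAB11A, whose ratio was near 0, so that the genes that were higher and a close relative that was not can be read side by side. Sequences are from RefSeq in GRCh38.p14, 250 bases up to the base before the annotated start, 5′ to 3′, all on the plus strand. They cover chr11:66268389-66268638 for RAB1B, chr19:8390110-8390359 for RAB11B, chr6:146543583-146543832 for RAB32 and chr15:65869241-65869490 for RAB11A. Capitals mark every match, on either strand, to 5 motifs. These were the GC box GGGCGG, the promoter element CCAAT known as the CCAAT box, the E-box CACGTG, the cyclic AMP response element TGACGTCA and the AP-1 site TGAGTCA. Adjoining or overlapping matches run into 1 stretch of capitals.
RAB1B: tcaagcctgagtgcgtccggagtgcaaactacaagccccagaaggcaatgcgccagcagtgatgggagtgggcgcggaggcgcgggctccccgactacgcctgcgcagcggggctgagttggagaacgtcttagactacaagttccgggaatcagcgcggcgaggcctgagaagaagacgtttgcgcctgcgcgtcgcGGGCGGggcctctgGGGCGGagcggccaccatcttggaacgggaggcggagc
RAB11B: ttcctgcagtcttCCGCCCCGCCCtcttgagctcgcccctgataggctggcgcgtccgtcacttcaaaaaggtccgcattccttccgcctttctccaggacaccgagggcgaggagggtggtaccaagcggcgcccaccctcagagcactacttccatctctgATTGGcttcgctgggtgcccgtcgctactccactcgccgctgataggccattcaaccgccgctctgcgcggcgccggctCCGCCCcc
RAB32: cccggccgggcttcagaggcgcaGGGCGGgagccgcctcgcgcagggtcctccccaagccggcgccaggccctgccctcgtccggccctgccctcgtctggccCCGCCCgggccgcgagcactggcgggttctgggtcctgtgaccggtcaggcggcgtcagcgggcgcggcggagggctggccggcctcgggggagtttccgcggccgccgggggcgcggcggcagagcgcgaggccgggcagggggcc
RAB11A: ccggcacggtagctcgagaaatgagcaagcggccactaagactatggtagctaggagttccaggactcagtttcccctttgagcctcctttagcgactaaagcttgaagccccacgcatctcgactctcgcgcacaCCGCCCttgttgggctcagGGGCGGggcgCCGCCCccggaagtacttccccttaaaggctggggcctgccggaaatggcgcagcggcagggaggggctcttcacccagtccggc
RAB1B and RAB32 each hold 2 GC boxes and none of the other motifs. RAB11B holds 3 GC boxes and 1 CCAAT box in reverse, and RAB11A 3 GC boxes. GC boxes stood in 60.4% of 9563 upstream windows of genes on the array and in 29 of 34 windows of measured RAB-named genes with an entry. CCAAT boxes stood in 35.5% and in 8 of 34, E-boxes in 8.32% and 4 of 34, cyclic AMP response elements in 2.74% and 2 of 34, and AP-1 sites in 2.99% and 2 of 34. The 9563 windows took in genes that were not measured, while the 34 did not, so these shares are of unlike sets. The GC box is shared by the higher genes and RAB11A. RAB29, which was 1.91-fold lower and so short of the 2-fold threshold, holds none of the 5 motifs in its window. The windows of RAB2A and RAB23, the genes past 2-fold on the lower side, were not read singly. RAB1A had no entry. Whether motifs or GC content go with the direction of a ratio was not tested. GC content was 66.8% in RAB1B, 65.6% in RAB11B, 82.0% in RAB32 and 62.8% in RAB11A, beside 45.2% in RAB29.

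In the probe sets used, several genes that load, switch and read RABs differed by more than any RAB. The other RAB11B probe set, at least 3.67-fold higher, was above most of them. More genes were measured in these lists than RAB-named genes. For attachment to membranes, 7 of 8 listed genes on the array were measured, of which 2 (28.6%) were higher by 2-fold or more and 2 (28.6%) lower, beside 9.97% and 14.4% of all genes. RABGGTA, the alpha subunit of the geranylgeranyl transferase, had 369 on the K-ras array and 125 on the parental array, 2.95-fold higher. RABGGTB, its catalytic beta subunit, had 136 on the K-ras array and 227 on the parental array, a log2 ratio of -0.74, so the subunits of the enzyme lay on opposite sides of 0. GDI2, which extracts GDP-bound RABs from membranes, had 581 on the K-ras array and 1295 on the parental array, 2.23-fold lower with a log2 ratio of -1.08 in a second probe set. Of the PRA1 family, membrane proteins related to a RAB acceptor, ARL6IP5 was 2.97-fold lower, with a log2 ratio of -0.93 in a second probe set, and PRAF2 at least 2.71-fold higher, while the RAB acceptor RABAC1 itself had a log2 ratio of 0.58.

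Of 24 exchange factors measured, 4 (16.7%) passed 2-fold on the higher side and 2 (8.33%) on the lower side, beside 9.97% and 14.4% of all genes. Of 17 above the floor on both arrays, 10 had log2 ratios above 0, with a median of 0.45. The share above 0 was close to the 3271 of 5996 over all genes. RGP1, part of the RAB6 exchange complex, had 153 on the K-ras array and 48.7 on the parental array, a value just above the floor, and was 3.15-fold higher. MON1B, which activates RAB7, was at least 3.13-fold higher. SBF1, a DENN-domain protein, had 296 on the K-ras array and 114 on the parental array, 2.60-fold higher. The RAB5 exchange factors split. RIN1, which also binds RAS, had 278 on the K-ras array and 138 on the parental array, 2.01-fold higher. RIN2 had 163 on the K-ras array and 533 on the parental array, 3.27-fold lower, and GAPVD1 was 2.37-fold lower with a log2 ratio of -0.96 in a second probe set. RIN3 was at 0.45. Among GTPase-activating proteins, 1 of 17 measured (5.88%) was at least 2-fold higher, TBC1D16 at 2.05-fold, and 2 (11.8%) were lower, TBC1D9 at 2.26-fold with a K-ras signal at the floor and TBC1D15 at 2.08-fold or more.

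Of 34 effectors and tethers measured, 3 (8.82%) were at least 2-fold higher, close to the 9.97% of all genes, and 8 (23.5%) lower, beside 14.4% of all genes. Of 28 above the floor on both arrays, 17 had log2 ratios below 0, with a median of -0.27. Over all genes, 2725 of 5996 were below 0. MICALL1, which builds tubular recycling endosomes, had 1185 on the K-ras array and 317 on the parental array, 3.74-fold higher, and a second probe set gave a log2 ratio of 2.83. EHBP1, an effector of RAB8 and RAB10 that acts with EHD proteins on tubules, had 48.9 on the K-ras array and 337 on the parental array, 6.89-fold lower with a K-ras signal just above the floor. VPS41, a subunit of the HOPS tether of late endosomes, had 52.1 on the K-ras array and 203 on the parental array, 3.90-fold lower. PLEKHM1, an adaptor between RAB7 and the lysosome, was 3.39-fold higher. The lipid kinase PIK3C3 and its partner PIK3R4, whose complex acts with RAB5 on early endosomes, were lower by at least 3.08-fold and by 3.20-fold. The Golgi proteins GOLGA2, which binds RAB1, and GOLGA5 went apart, with log2 ratios of 1.61 and -1.65. These lists were written with earlier results of the data known, and neither their shares nor their medians, which stand beside 0.10 for all genes, were tested.

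**Figure D4:**
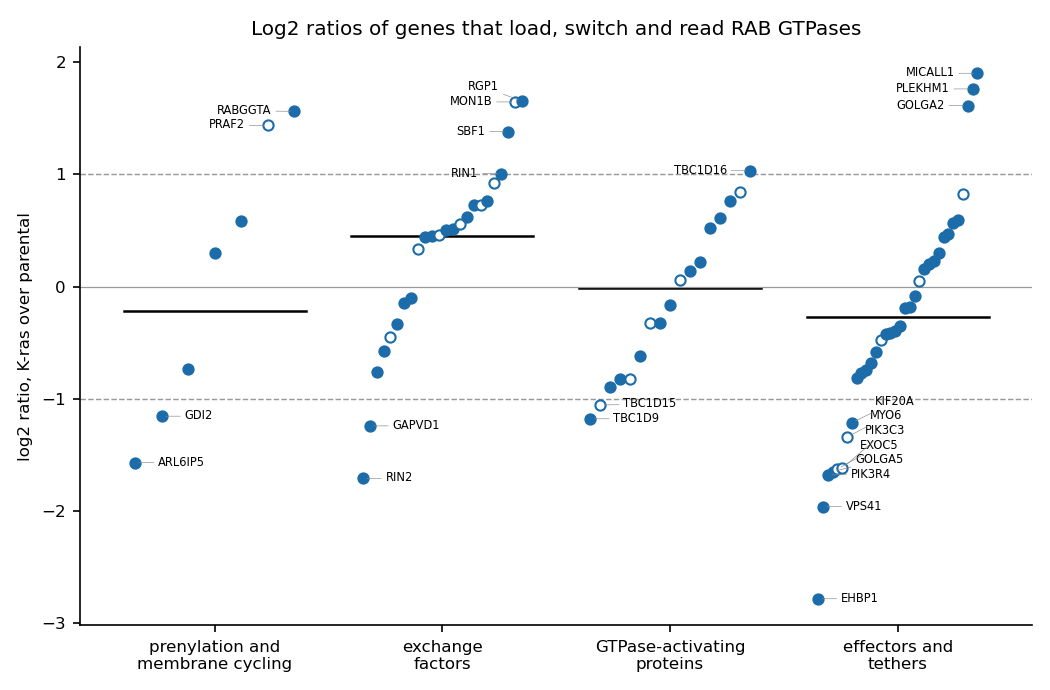
Log2 ratio of K-ras over parental for measured genes of RAB prenylation and membrane cycling, exchange factors, GTPase-activating proteins, and effectors and tethers; filled points are above the floor on both arrays, open points are bounds, bars are medians of the filled points and genes past 2-fold (dashed lines) are named. EHBP1 lies lowest at -2.78 and MICALL1 highest at 1.90.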

How the data were processed

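Values were 1 linear intensity per probe set and array, as deposited by the authors, for 22283 probe sets, 68 of them controls. The authors' software is, in the sources used here, not given. After trimming 2% at each end the means were 150.06 in both columns, so the table was taken as scaled, and the columns were rescaled to a common trimmed mean. Gene names came from the annotation of the array, with 19071 probe sets naming 1 symbol, 1043 several and 2169 none; no symbol needed updating to GRCh38.p14. The probe set with the highest mean log2 signal stood for a gene. Ratios used the floor in place of any lower signal, and 2-fold was the threshold. With 1 array per group no test was run, and the number of arrays limits precision. Compartment classes follow textbook roles. Named are all members past 2-fold, the extremes of each class, families sharing a number, and up to 4 genes per pathway list past 2-fold. Further pathway genes (RIN1, RIN3, GAPVD1, RABGGTB, PIK3C3, PIK3R4, GOLGA2, GOLGA5) were named after their values were seen. The members, lists and 12 alternative settings were chosen with earlier results of these data known. The procedure was run on simulated arrays with known changes of 3-fold or more, planted in genes far above the floor. That run does not show how well changes near 2-fold, or in genes near the floor, are found. Tools were pandas 2.3.3, numpy 2.4.6, statsmodels 0.14.6, scipy 1.17.1 and matplotlib 3.10.9 under Python 3.11.15.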

Additional observations from a re-analysis of the deposited data

How the results depend on the processing

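The 12 settings changed the scaling (none, quantile, median centring, loess with span 0.3, or 100 maintenance probe sets), the floor (30th or 70th percentile, none, or added as a pseudocount), the probe sets (their median, or without _x_at and _s_at ones) or removed the genomic span trend in 20 bins; counts were also made at 3-fold. RAB1B stayed at least 2-fold higher in each setting except the one without _x_at and _s_at probe sets, which has no value for it, with log2 ratios of 1.10 to 1.56, and RAB11B ran from 0.29, with the floor at the 70th percentile, to 1.67. The count of higher RAB-named genes was 6 with maintenance scaling, 5 with quantile normalization, 3 with the pseudocount or without the span trend, 2 with the floor at the 70th percentile, 7 with no floor, 1 without _x_at and _s_at probe sets and 0 at 3-fold, and 4 otherwise. Over all genes the higher share was 14.4% with maintenance scaling, 11.1% with quantile normalization, 6.1% with the pseudocount and 7.99% without the span trend. It was 9.04% with the floor at the 70th percentile, 20.3% with no floor and 9.88% without _x_at and _s_at probe sets. Otherwise it ran from 8.07% to 13.9%. No such share was counted at 3-fold. The count of lower ones was 4 with median centring, 3 with quantile normalization, loess or no floor, 0 with maintenance scaling and at 3-fold, 1 with the floor at the 70th percentile, as a pseudocount, or without _x_at and _s_at probe sets, and 2 otherwise. The lower share over all genes was 16.3% with median centring, 13.6% with quantile normalization, 15.2% with loess and 15% with no floor. It was 11.1% with maintenance scaling and 10.9% with the pseudocount. The floor at the 70th percentile gave 12.7%, the filter on probe set names 15.5%, and other settings 13.9% to 15.1%. RAB-named genes measured were 41 with maintenance scaling, 42 with loess, 44 with the floor at the 30th percentile and 52 with no floor. The median over all RAB-named genes was -0.016 with median centring, 0.25 with maintenance scaling and 0.18 after the span trend was removed. The median of all genes was 0.022 with median centring and 0.0016 after the span trend was removed. Maintenance scaling moved the median of all genes to 0.26, the secretory median to 0.38 and the early endosomal one to -0.14. With the median over probe sets the early endosomal median was -0.031, the late endosomal one -0.027 and RAB2A 0.011. The late endosomal median was 0.51 with the floor at the 70th percentile and -0.073 without _x_at and _s_at probe sets, which also put the recycling median at 0.44. Fewer genes enter under the higher floor and the probe set filter, with 27 RAB-named genes measured in each; other causes were not tested. No paired analysis was possible because each group has 1 array.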
